A study of Mus musculus with 18 samples.

Results

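The transcripts of glucose uptake, glycolysis and lactate export were described in differentiated brown adipocytes of BMC, an immortalised mouse brown preadipocyte line. The group holds 30 genes, chosen by gene name from the 45706 in the count table for their role in the pathway, with earlier results of these data known, and 28 of them had enough counts to be tested. The study asks how such cells change once norepinephrine starts thermogenic lipolysis. Its 18 libraries carry 3 labels with 6 libraries each, numbered 1 to 6: not induced (0 h), and 4 h or 24 h after 1 µM norepinephrine. All the cells had been differentiated with insulin, triiodothyronine, dexamethasone, indomethacin and isobutylmethylxanthine, were kept in 20 nM insulin and 1 nM triiodothyronine afterwards, and were used on day 7. A single line is the model, and the label calls every library part of batch 1.

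Brown adipocytes take up glucose through the carriers GLUT1 (Slc2a1), which resides at the cell surface, and GLUT4 (Slc2a4), which insulin brings there. Hexokinases trap the sugar as glucose 6-phosphate, and the glycolytic enzymes turn it into pyruvate, with phosphofructokinase as a main control point that the PFKFB enzymes adjust through fructose 2,6-bisphosphate. Pyruvate can enter mitochondria or be reduced to lactate by lactate dehydrogenase and leave through monocarboxylate carriers. In brown fat, noradrenergic stimulation is known to raise glucose uptake, and glycolysis also feeds glycerol 3-phosphate for triglyceride synthesis.

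Expected counts summed to between 7010742 and 26501223 per library. The smallest library, 24 h replicate 5, stood apart by its ribosomal RNA, 41.5% of counts against 6.78 to 10.6% in the other 17 libraries. Over all 14788 tested genes, replicate number explained a median of 72.0% of the variance between libraries and labelled time 3.78%. Libraries with numbers 3 apart resembled each other about as much as libraries with the same number (median correlations of deviations from the time means of 0.569 and 0.590, against -0.27 for other pairs of numbers). No label ties a number to a culture or a day, and whether each library had a culture of its own is not stated, so a p-value reflects library-to-library spread that could be technical. Whether the time labels match the cells was not tested. Values are therefore given by labelled time and by the number sets 1+4, 2+5 and 3+6, with 6 libraries and all 3 times in each. These sets were formed from the likeness of the same libraries, so differences between them are described with intervals and without p-values. The intervals come from a model of time and replicate number. They measure the spread of libraries within a number and leave out the spread between the numbers joined in a set. An interval away from 0 is therefore not a test of the sets.

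Adipocyte identity was checked with defining markers. Adipoq, a hormone made by mature adipocytes, was at 418 to 876 CPM (counts scaled to library depth by trimmed mean of M values) in every library, while Ucp1, the uncoupling protein of brown fat, was at 1.08 to 18.03 CPM. The muscle creatine kinase Ckm had no count in 16 libraries and the leukocyte gene Ptprc none in 15, and the endothelial gene Pecam1 did not exceed 0.712 CPM. Pdgfra, a preadipocyte and fibroblast marker, was at 56.7 to 167 CPM and the proliferation marker Mki67 at 580.1 to 971 CPM in the 18 libraries, and the smooth muscle gene Myh11 at 0.663 to 2.04 CPM.

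Promoter sequence is shown for members whose windows share a motif and for 1 whose window lacks that form of it. Whether the motif has a part in the differences between number sets was not tested. RefSeq start sites (GRCm38.p6) matched 28 of the 30 members, with 45 windows of 250 bases upstream. The windows were searched on both strands for ACGTG (reverse complement CACGT), the core of the hypoxia response element bound by HIF factors. The palindrome CACGTG, an E-box, overlaps this motif and is counted on both strands. The core was in 17 of the 45 windows (37.8%), from 13 of the 28 genes, in 21.3% of the windows of tested genes and in 16.6% of all 32817 windows of this length. Windows of a gene can overlap and count the same match again, as in Aldoa. No share per gene was computed for the other genes. CACGTG was in 11.1% of the members' windows, 8.16% of those of tested genes and 6.02% of all. GCGTG (reverse complement CACGC), the other common form of the core, was in 51.1% of the members' windows, against 44.5% of those of tested genes and 28.1% of all. Capitals mark ACGTG or its reverse complement in the 5 windows printed, each 5′ to 3′ on the gene's strand and free of GENCODE M21 exons.
Ldha, chr7:46845554-46845803, plus strand: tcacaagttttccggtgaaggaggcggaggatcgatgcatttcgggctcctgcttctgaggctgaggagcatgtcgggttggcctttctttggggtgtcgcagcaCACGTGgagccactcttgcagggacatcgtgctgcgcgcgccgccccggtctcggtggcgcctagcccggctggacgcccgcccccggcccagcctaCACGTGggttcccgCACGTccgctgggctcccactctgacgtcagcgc
Pgk1, chrX:106186850-106187099, plus strand: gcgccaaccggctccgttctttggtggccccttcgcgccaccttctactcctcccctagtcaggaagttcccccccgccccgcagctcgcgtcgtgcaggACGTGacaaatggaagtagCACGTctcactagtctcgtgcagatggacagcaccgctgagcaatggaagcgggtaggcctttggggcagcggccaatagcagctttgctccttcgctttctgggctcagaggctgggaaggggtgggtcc
Pgam1, chr19:41911621-41911870, plus strand: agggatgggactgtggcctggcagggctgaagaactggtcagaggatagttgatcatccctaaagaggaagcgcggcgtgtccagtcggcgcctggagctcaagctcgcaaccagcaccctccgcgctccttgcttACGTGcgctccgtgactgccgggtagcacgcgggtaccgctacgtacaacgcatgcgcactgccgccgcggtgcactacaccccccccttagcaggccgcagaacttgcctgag
Hk2, chr6:82774455-82774704, minus strand: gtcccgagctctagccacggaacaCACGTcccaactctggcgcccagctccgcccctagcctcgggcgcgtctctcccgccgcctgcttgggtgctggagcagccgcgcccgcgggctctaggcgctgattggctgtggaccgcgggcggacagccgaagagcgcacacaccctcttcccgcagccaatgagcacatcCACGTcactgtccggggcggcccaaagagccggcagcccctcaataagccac
Gapdh, chr6:125165774-125166023, minus strand: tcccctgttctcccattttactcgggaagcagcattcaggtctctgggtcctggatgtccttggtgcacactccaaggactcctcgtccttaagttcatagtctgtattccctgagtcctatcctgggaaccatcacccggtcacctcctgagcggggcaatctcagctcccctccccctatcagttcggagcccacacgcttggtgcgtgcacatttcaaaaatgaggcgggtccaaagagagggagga
The Ldha window holds 5 matches over both strands, with 2 CACGTG palindromes, the Pgk1 and Hk2 windows hold 2 matches each, and the Pgam1 window holds 1. The Gapdh window holds no ACGTG or CACGT, but it holds 1 GCGTG and 1 CACGC, which are not in capitals. A match is a description of the letters only.

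No member passed the test at any labelled time. At 4 h against 0 h, 0 of 28 members had an adjusted p under 0.05 in edgeR's quasi-likelihood test (0% of all tested genes), and the same held at 24 h against 0 h (0%) and at 24 h against 4 h (0%). At an unadjusted p under 0.05 the count of members was 0 in each comparison, against 1.17%, 1.07% and 0.926% of all tested genes. The members' median log2 fold change was 0.02 at 4 h and -0.08 at 24 h against 0 h, and -0.10 at 24 h against 4 h, where the medians of all genes were 0.01, -0.00 and -0.01. Fold changes of single members ran from -0.28 to 0.14 at 4 h and from -0.53 to 0.07 at 24 h on the log2 scale. At 24 h, 22 members had a negative value and 6 a positive one.

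Levels at the 3 labelled times covered one another for every member. Slc2a1 had a lowest, median and highest level of 21.1, 53.8 and 79.5 CPM at 0 h, of 23.0, 56.1 and 81.0 CPM at 4 h, and of 22.6, 52.7 and 78.6 CPM at 24 h. Slc2a4 was at 62.4, 75.8 and 198 CPM at 0 h, at 54.4, 74.4 and 204 CPM at 4 h, and at 57.9, 65.9 and 195 CPM at 24 h. Ldha, which makes lactate from pyruvate, was at 172, 609 and 843 CPM at 0 h, at 163, 540.3 and 848 CPM at 4 h, and at 149, 558 and 811 CPM at 24 h. In each of these genes the 3 times reach nearly the same bottom and top, and the groups overlap almost wholly. None of the 28 members had 6 libraries at one time clear of the 6 at another, nor did more than 0.0676% of all tested genes at 4 h, 0.0406% at 24 h, or 0% at 24 h against 4 h.

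Adding the replicate number to the model narrowed the intervals and gave no called member in any comparison, beside 0%, 0.00676% and 0% of all tested genes. For Pgk1, the 24 h log2 fold change had a 95% interval of -1.23 to 1.00 by time alone and of -0.22 to -0.00 with the number as a block. With the block, unadjusted p-values under 0.05 were seen for 2, 4 and 6 members at 4 h, 24 h and 24 h against 4 h, beside 9.88%, 7.81% and 5.12% of all tested genes, and the smallest adjusted p-values of members in edgeR's test were 0.242, 0.334 and 0.921. Compared within replicate numbers, 1 member was lower at 4 h in all 6 numbers and 1 was higher (3.12% and 3.53% of all genes). At 24 h against 0 h these counts were 0 and 0 (1.97% and 2.55%), and at 24 h against 4 h they were 1, Slc16a1, and 0 (2.16% and 1.37%). Pfkfb1, the liver type of the bifunctional enzyme that sets fructose 2,6-bisphosphate, had the smallest of them at 4 h and at 24 h. Its blocked log2 fold change was -0.15 at 4 h (interval -0.24 to -0.06, lower in 6 of 6 numbers) and -0.14 at 24 h (-0.23 to -0.05, lower in 5 of 6). Hk1, the housekeeping hexokinase, was higher at 4 h in 6 of 6 numbers, by 0.15 (0.03 to 0.26), with an adjusted p of 0.392 in the blocked edgeR model. Slc2a4 at 24 h had a blocked value of -0.11 (-0.20 to -0.02) and an adjusted p of 0.511 in the same model. The interval of Slc16a3 was the widest of the members at 4 h and 24 h. In the blocked model this low gene was at -0.44 at 24 h, with an interval of -0.94 to 0.05.

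**Figure D1:**
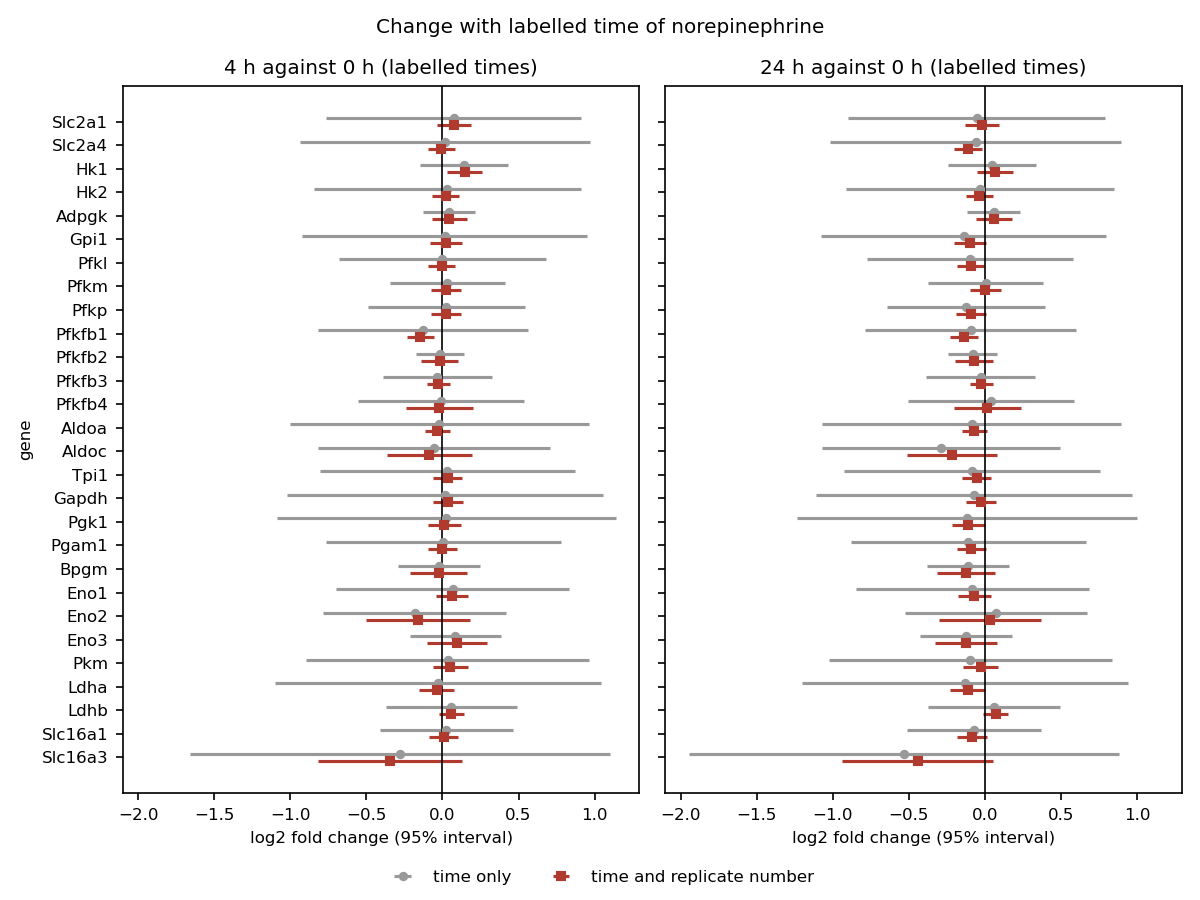
Log2 fold change (x axis) of the 28 tested members (y axis) at 4 h and 24 h against 0 h by label, with 95% intervals, from a model of time alone (grey circles) and of time and replicate number (red squares). Intervals of the model with the number are narrower, and no member had an adjusted p under 0.05 in either.

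The isoform balance by labelled time gave no called difference. For 10 ratios of isoforms of a step in 3 comparisons (30 tests), the log2 ratio was compared by a two-sided exact permutation test, whose smallest possible p is 0.00216. None passed after Benjamini-Hochberg adjustment, and the smallest raw p was 0.323, for Slc16a3 to Slc16a1 at 24 h (difference -0.61). Each time holds all the number sets, and the spread between them enters this test. Its lack of a call therefore says little about small shifts in isoform balance. Within replicate numbers, an exact sign-flip permutation test cannot go below 0.0312. It reached that value for Slc16a3 to Slc16a1 at 4 h, where the log2 ratio was lower in 6 of 6 numbers by 0.365 on average, and its adjusted p was 0.656 in this exact permutation test.

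The replicate number, in contrast, passed edgeR's test for 27 of the 28 members, as it did for 72.5% of all tested genes. The exception was Pfkfb2, the heart type of the bifunctional enzyme, with an adjusted p of 0.131 in the same edgeR test. The numbers accounted for a median of 97.2% of the members' variance, the labelled times for 0.655% and the 3 sets alone for 96.1%. Over all tested genes the sets alone accounted for 62.7%. The summed level of the 30 members was 9091 ± 599 CPM in set 1+4 (SD, n = 6), 7159 ± 363 CPM in set 2+5 and 2848 ± 123 CPM in set 3+6. By labelled time the sum was 6478 ± 2948 CPM at 0 h, 6537 ± 3018 CPM at 4 h and 6083 ± 2661 CPM at 24 h. The 3 sets did not overlap in this sum, while the 3 times did.

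**Figure D2:**
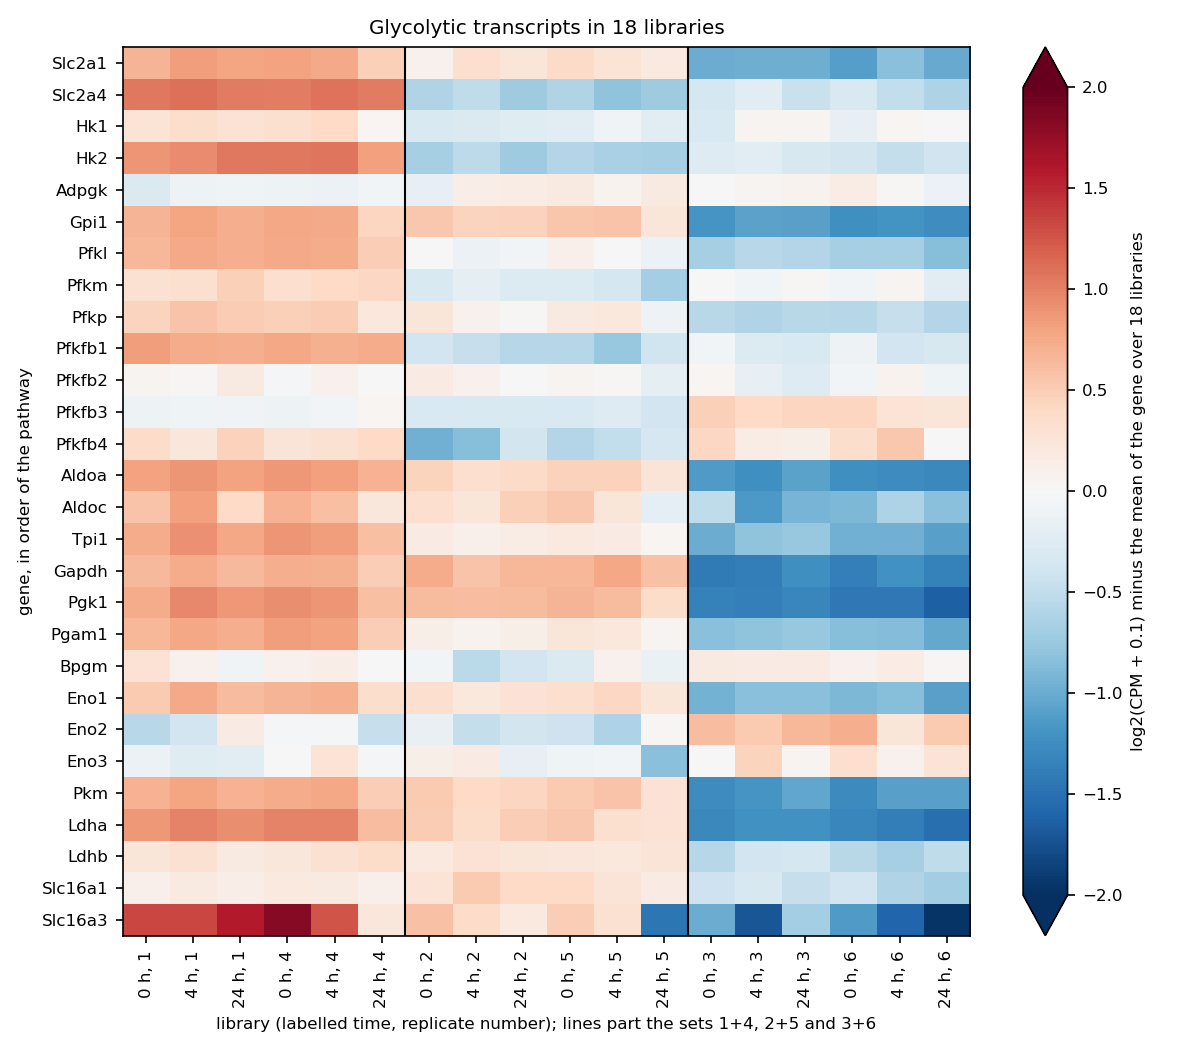
Level of the 28 tested members (y axis, in pathway order) in the 18 libraries (x axis), as log2(CPM + 0.1) minus the gene's mean over all libraries, with colours capped at 2 either way. Most rows change at the lines between the sets 1+4, 2+5 and 3+6, with the trunk enzymes lowest in set 3+6, while Pfkfb3 and Eno2 run the other way.

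Set 3+6 held the lowest levels of most enzymes. Against set 1+4, 20 members were lower and 2 higher with no overlap of the 6 and 6 libraries, beside 19.5% of all tested genes lower and 19.1% higher, and the members' median log2 difference was -1.33 where that of all genes was 0.00. Against set 2+5, 15 members were lower and 5 higher in set 3+6 (15.5% and 14.2% of all genes), with a median of -0.71. Scaled by library totals alone, that split became 3 lower and 8 higher, and the median of all genes moved to 0.26. The shares of all genes were not computed under library totals, and 15.5% and 14.2% hold for the main scaling only. The library with 41.5% ribosomal RNA, 24 h replicate 5, is in set 2+5. Its scaling factor was 0.430, against 0.913 to 1.15 in the other libraries. Members held 0.281% of its unscaled counts, against 0.689 to 0.783% in the rest of set 2+5 and 0.299 to 0.338% in set 3+6. The part of this library in the change was not tested. Between sets 2+5 and 1+4, 13 members were lower and 0 higher (18% and 17.4% of all genes), with a median of -0.32. In bulk RNA, fewer cells of a type and less RNA per cell cannot be told apart.

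Other markers moved with the sets. The 10 preadipocyte and fibroblast markers summed to 821 to 958 CPM in set 1+4, 1055 to 1521 CPM in set 2+5 and 1570 to 1967 CPM in set 3+6. Of them 7 were tested, and 6 of these were higher and 0 lower in set 3+6 than in set 1+4 with no overlap (19.1% and 19.5% of all tested genes). The 10 mature adipocyte markers summed to 10010 to 10563, 9307 to 11355 and 7348 to 8686 CPM, although Adipoq itself was at 443, 594 and 773 CPM on average. All 10 were tested, and 5 were lower and 2 higher in set 3+6 than in set 1+4 with no overlap (19.5% and 19.1% of all tested genes). The 8 brown adipocyte markers summed to 199 to 220 CPM in set 1+4, 157 to 180.03 CPM in set 2+5 and 161 to 182 CPM in set 3+6. Of the 7 tested, 4 were lower and 1 higher in set 3+6 than in set 1+4 with no overlap (19.5% and 19.1% of all tested genes). Against set 2+5, 1 was lower and 2 were higher (15.5% and 14.2%). Ucp1, on that list, had a mean of 15.8, 10.5 and 1.81 CPM. The 5 smooth muscle markers summed to 29.3 to 32.3 CPM in set 1+4 and to 63.2 to 85.9 CPM in set 3+6, and Mki67 was at 942, 596 and 633 CPM on average. The part of these in the differences of glycolytic genes was not tested.

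The 2 tested glucose carriers followed different orders. Slc2a1 had a lowest, median and highest level of 63.4, 77.8 and 81.0 CPM in set 1+4, of 48.2, 54.3 and 59.3 CPM in set 2+5, and of 21.1, 22.9 and 25.3 CPM in set 3+6. It stepped down with no overlap at either step, to 3.30-fold lower in set 3+6 than in set 1+4 (log2 difference -1.72, interval -1.84 to -1.61). Slc2a4 was at 193, 196 and 204 CPM in set 1+4, at 54.4, 60.2 and 66.7 CPM in set 2+5, and at 61.7, 72.3 and 81.8 CPM in set 3+6. Set 1+4 alone was high for this carrier, and the other sets overlapped each other. The log2 difference from set 1+4 was -1.72 (-1.81 to -1.63) for set 2+5 and -1.46 (-1.54 to -1.37) for set 3+6. Per kb of exon, Slc2a4 made up 72.6 ± 1.69% of the 3 carriers in set 1+4, 52.9 ± 2.29% in set 2+5 and 75.7 ± 2.39% in set 3+6. Slc2a3, the carrier typical of neurons, had at most 13 counts in a library and was left out by the filter.

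**Figure D3:**
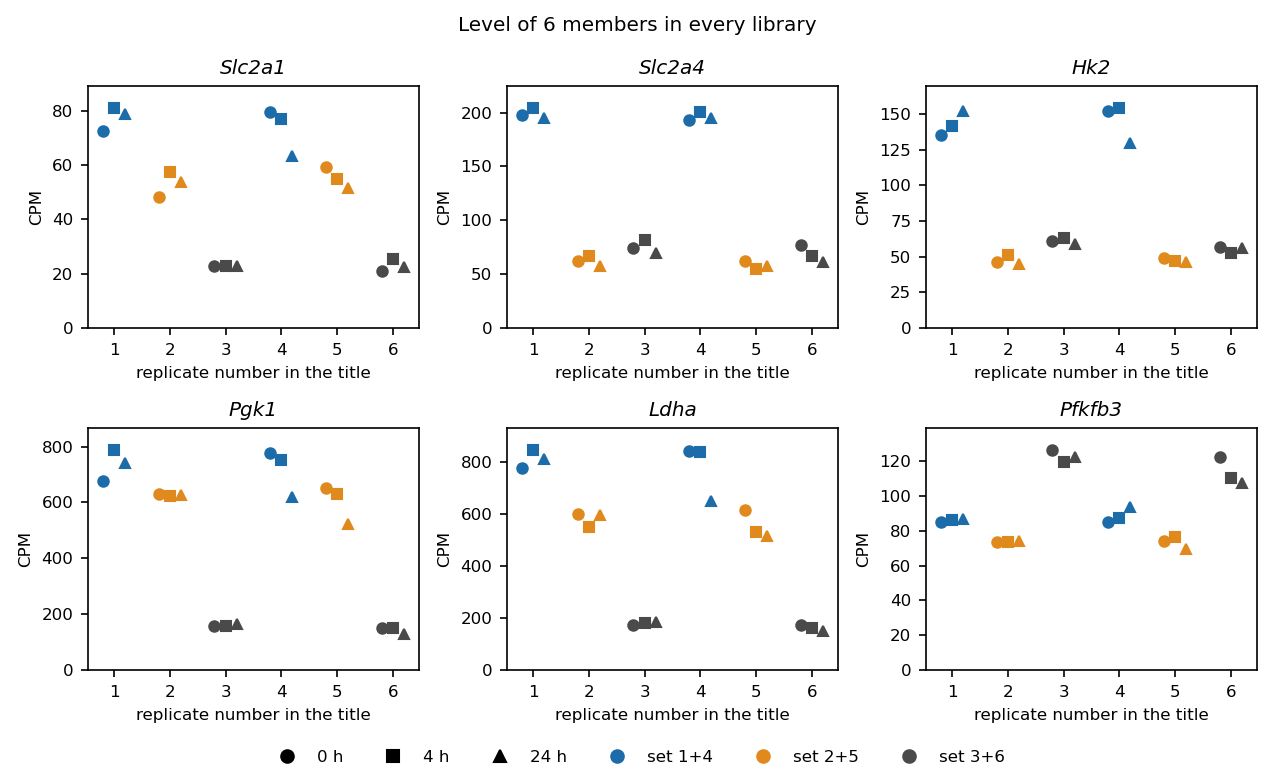
CPM (y axis, from 0) of Slc2a1, Slc2a4, Hk2, Pgk1, Ldha and Pfkfb3 in every library by replicate number (x axis), with the labelled time as the marker and the number set as the colour. Points of one number lie close at all 3 times, and Pgk1 and Ldha drop in numbers 3 and 6, where Pfkfb3 is highest.

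Among the glucose kinases, Hk2 differed most. This insulin-responsive hexokinase of muscle and fat was at 129.6, 147 and 154 CPM (lowest, median, highest) in set 1+4, at 44.6, 46.7 and 51.0 CPM in set 2+5, and at 52.9, 57.9 and 63.0 CPM in set 3+6. As for Slc2a4, set 1+4 was clear above the rest, with log2 differences of -1.61 (-1.70 to -1.52) for set 2+5 and -1.31 (-1.40 to -1.22) for set 3+6. Unlike Slc2a4, the libraries of set 3+6 all lay above those of set 2+5, by 0.30 (0.20 to 0.39). Hk1 was at 84.6 ± 7.07 CPM in set 1+4, at 59.6 ± 3.55 CPM in set 2+5 and at 67.1 ± 6.59 CPM in set 3+6, so its spread between sets was smaller. Adpgk, which phosphorylates glucose with ADP, overlapped between all sets, at 26.5 ± 1.52, 30.9 ± 2.65 and 29.6 ± 1.75 CPM. The share of Hk2 among the 3 kinases per kb of exon was 65.5 ± 0.826% in set 1+4, 43.8 ± 1.81% in set 2+5 and 47.1 ± 2.61% in set 3+6. By exon length Hk2 led this step on average in each set, but over all libraries Hk1 led when the longest transcript was used as the length. In CPM without a length, which does not compare genes, Hk2 was above Hk1 on average in set 1+4 and below it in sets 2+5 and 3+6.

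Of the first enzymes after hexokinase, all but Pfkm were lowest in set 3+6. Gpi1, the isomerase that makes fructose 6-phosphate, was at 610.2 ± 53.2 CPM in set 1+4, 522 ± 42.9 CPM in set 2+5 and 168 ± 8.53 CPM in set 3+6. Of the phosphofructokinase subunits, the liver type Pfkl stepped down from 365 ± 24.8 to 222 ± 12.7 and 143 ± 10.0 CPM, with no overlap between any sets. The muscle type Pfkm was lowest in set 2+5, at 53.8 ± 2.41, 32.8 ± 3.64 and 40.4 ± 2.54 CPM, and the platelet type Pfkp was at 43.5 ± 3.64, 34.1 ± 2.93 and 21.5 ± 0.747 CPM. Pfkl led the step per kb of exon in all sets, with 73.8 ± 1.48%, 72.9 ± 1.93% and 61.0 ± 1.26%, while Pfkm had a share of 21.8 ± 1.62% in set 1+4 and of 34.4 ± 1.07% in set 3+6.

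The bifunctional enzymes did not share one direction. Pfkfb3, the form with high kinase activity, was at 85.3, 86.4 and 93.9 CPM (lowest, median, highest) in set 1+4, at 69.6, 73.9 and 76.3 CPM in set 2+5, and at 107, 121 and 126 CPM in set 3+6. It was one of only 2 members higher in set 3+6 than in both other sets with no overlap, by 0.44 (0.36 to 0.51) against set 1+4 and 0.67 (0.60 to 0.75) against set 2+5. Pfkfb1, in contrast, was highest in set 1+4, at 67.2 ± 2.16 CPM in set 1+4, 27.7 ± 2.69 CPM in set 2+5 and 33.8 ± 3.08 CPM in set 3+6. Set 3+6 lay below set 1+4 for Pfkfb1 but above set 2+5, by 0.33 (0.23 to 0.42), with no overlap in either case. Pfkfb4, named for testis, was low only in set 2+5, at 3.62 ± 0.638 CPM against 6.94 ± 0.451 and 6.64 ± 0.935 CPM in sets 1+4 and 3+6. Pfkfb2 was at 14.8 ± 0.806, 14.6 ± 1.13 and 13.5 ± 1.16 CPM, and all its sets overlapped. Pfkfb1 therefore made up 52.7 ± 1.31% of the 4 per kb of exon in set 1+4 and 30.8 ± 1.20% in set 3+6, and Pfkfb3 36.4 ± 1.16% and 57.3 ± 1.5%.

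**Figure D4:**
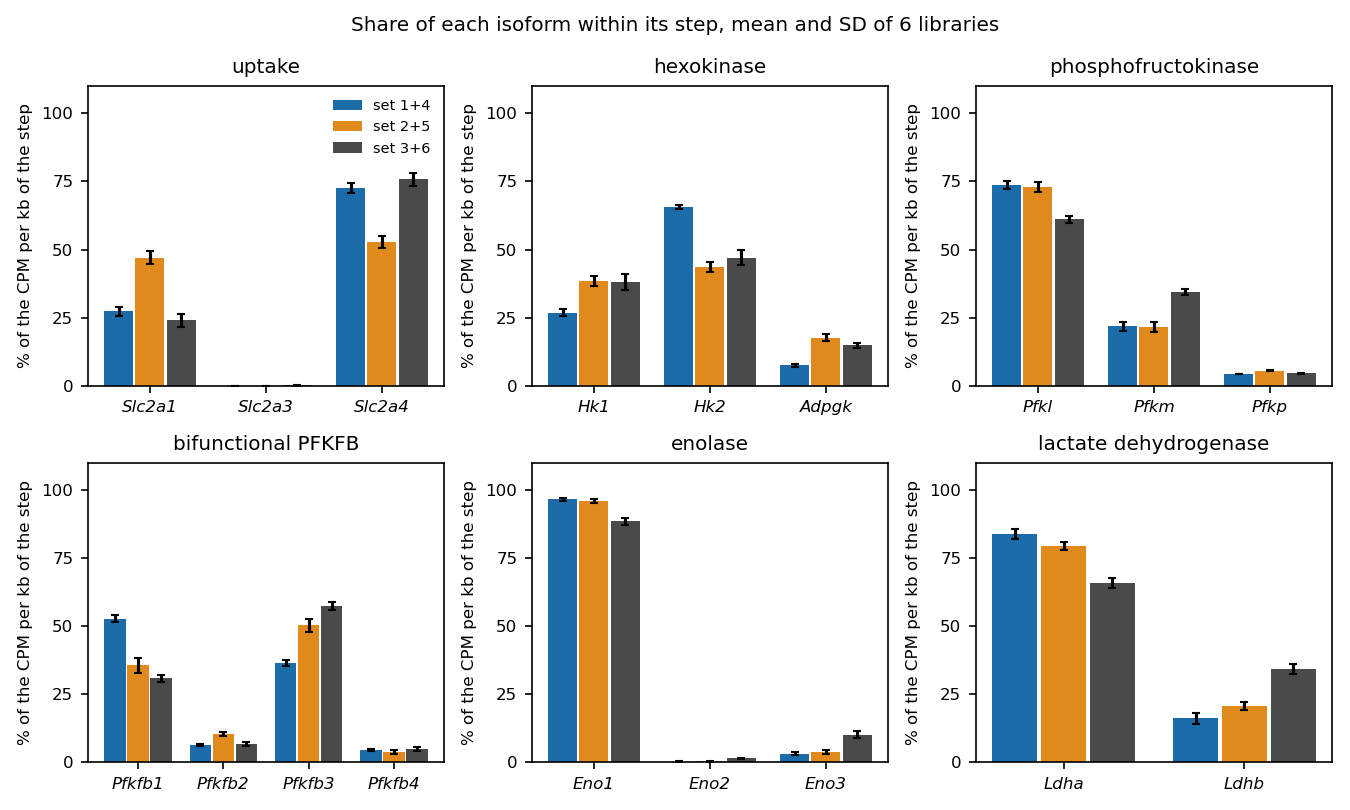
Share of each isoform in the summed CPM per kb of exon of its step (y axis, percent), as the mean and SD of the 6 libraries of each number set (bars). Set 2+5 holds the largest share of Slc2a1, while Pfkfb3 and Ldhb take their largest shares in set 3+6.

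The enzymes that split and oxidise the hexose were several-fold lower in set 3+6. The 6 members with the highest level per kb of exon, from 155 to 321 CPM per kb over all libraries, were Aldoa, Pgk1, Gapdh, Pgam1, Pkm and Ldha. Pgk1, which makes the first ATP of glycolysis, was at 620.3, 746 and 788 CPM (lowest, median, highest) in set 1+4, at 523, 629 and 651 CPM in set 2+5, and at 130.4, 154 and 164 CPM in set 3+6. Its libraries in sets 1+4 and 2+5 overlapped, and set 3+6 was 4.78-fold lower than set 1+4 (log2 difference -2.26, interval -2.37 to -2.14). Gapdh, often used as a reference gene, was at 1037, 1178 and 1223 CPM in set 1+4, at 1085, 1162 and 1251 CPM in set 2+5, and at 276, 285 and 318 CPM in set 3+6. For Gapdh sets 1+4 and 2+5 were level (log2 difference 0.00, interval -0.09 to 0.10), and set 3+6 was 3.97-fold below set 1+4. Aldoa, the main aldolase, stepped down from 1407 ± 60.1 to 1049 ± 55.6 and 349 ± 19.8 CPM, without overlap, to 4.03-fold below set 1+4. Tpi1, which interconverts the triose phosphates, stepped down likewise from 445 ± 34.6 to 282 ± 10.6 and 135 ± 11.5 CPM. The brain aldolase Aldoc was low throughout, at 3.47 ± 0.512, 2.84 ± 0.491 and 1.27 ± 0.220 CPM.

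The last steps to pyruvate followed in part. Pgam1, the main phosphoglycerate mutase, was at 586 ± 50.6, 392 ± 19.6 and 197 ± 12.2 CPM in sets 1+4, 2+5 and 3+6, with no overlap. Bpgm, which makes 2,3-bisphosphoglycerate, was at 6.19 ± 0.539, 5.03 ± 0.803 and 6.34 ± 0.27 CPM, overlapping throughout, and the muscle mutase Pgam2 had 8 counts in all libraries together and was not tested. Pkm, pyruvate kinase, was at 1393 ± 103, 1175 ± 84.4 and 385 ± 24.8 CPM, 3.61-fold lower in set 3+6 than in set 1+4. Its M1 and M2 forms cannot be told apart in gene counts. Eno1, the general enolase, was at 489 ± 49.2, 394 ± 20.7 and 169.9 ± 10.8 CPM, and is uncertain because its copy Eno1b took 28.7% of the counts of the pair, a share of 28.6, 29.0 and 28.7% in the 3 sets. Eno2, the neuronal enolase, was the other member higher in set 3+6, at 2.46 ± 0.290 CPM against 1.42 ± 0.303 and 1.29 ± 0.229 CPM, though it stayed 1.47 ± 0.191% of the 3 enolases per kb of exon there. The muscle form Eno3 overlapped between all sets, at 5.21 ± 0.737, 5.00 ± 1.11 and 6.25 ± 0.775 CPM.

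Transcripts of lactate production and export were lowest in set 3+6 as well. Ldha was at 651, 826 and 848 CPM (lowest, median, highest) in set 1+4, at 517, 574 and 617 CPM in set 2+5, and at 149, 173 and 184 CPM in set 3+6. No 2 sets overlapped, and set 3+6 was 4.65-fold below set 1+4 (log2 difference -2.22, interval -2.34 to -2.10). Ldhb, which favours pyruvate from lactate, was level in sets 1+4 and 2+5 and lower in set 3+6, at 72.1 ± 3.52, 70.3 ± 1.69 and 42.1 ± 3.58 CPM. The share of Ldha in the pair per kb of exon was 83.8 ± 1.95%, 79.3 ± 1.45% and 65.8 ± 1.73%. Slc16a1, the lactate carrier MCT1, was at 212, 221 and 226 CPM in set 1+4, at 221, 250.2 and 284 CPM in set 2+5, and at 122, 146 and 158 CPM in set 3+6. It was highest on average in set 2+5 but overlapped set 1+4 there, and set 3+6 lay below both. Slc16a3 (MCT4), the export carrier of highly glycolytic cells, was scarce, at 2.86 ± 0.925, 1.26 ± 0.477 and 0.384 ± 0.164 CPM, and Slc16a1 made up 98.9 ± 0.330% or more of the pair in each set.

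**Figure D5:**
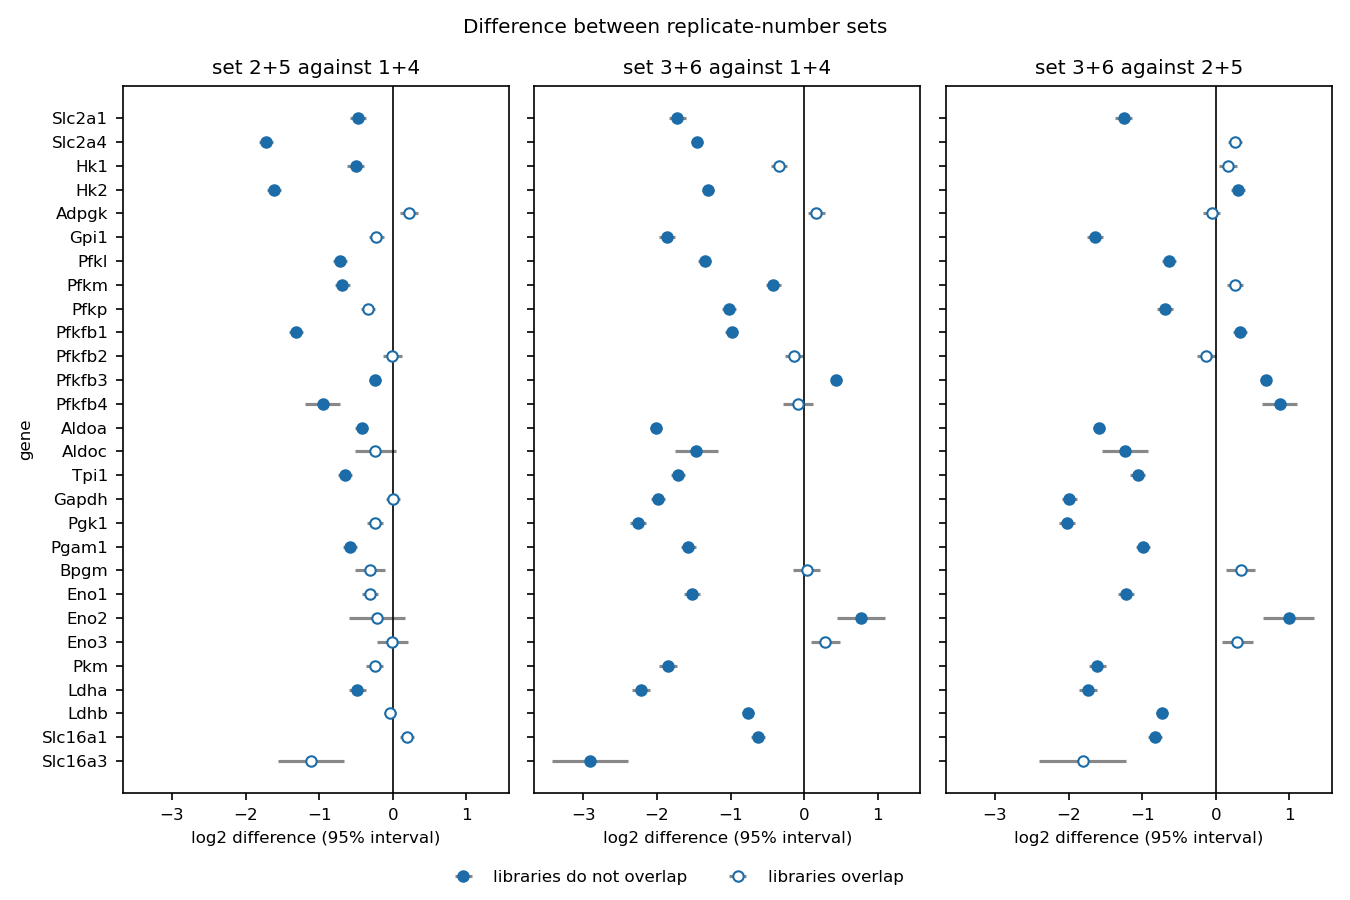
Log2 difference (x axis) with its 95% interval for the 28 tested members (y axis) in each comparison of number sets, filled where the 6 and 6 libraries do not overlap. Slc2a4, Hk2 and Pfkfb1 differ most between sets 2+5 and 1+4, and Slc16a3, Pgk1, Ldha, Aldoa and Gapdh lie furthest below 0 in set 3+6 against set 1+4.

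By overlap of their sets the members fell into a few patterns. The share of all tested genes with each pattern was not computed under either scaling, so the counts describe the members only. In 6 members (Slc2a1, Pfkl, Aldoa, Tpi1, Pgam1 and Ldha) each set lay clear below the one before it. With library totals in place of scaling none of these 6 kept both steps: Slc2a1, Pfkl, Aldoa, Tpi1 and Pgam1 overlapped between sets 3+6 and 2+5, and Slc2a1 and Ldha between sets 2+5 and 1+4. Set 2+5 holds 24 h replicate 5, whose scaling factor was 0.430 against 0.913 to 1.15 in the other libraries. The part of this library in these overlaps was not tested. In 9 (Gpi1, Pfkp, Aldoc, Gapdh, Pgk1, Eno1, Pkm, Ldhb and Slc16a1) sets 1+4 and 2+5 overlapped and set 3+6 lay below both. Without 24 h replicate 4, however, sets 1+4 and 2+5 no longer overlapped in 5 of these 9 (Gpi1, Pfkp, Pgk1, Eno1 and Pkm). With library totals, 7 of the 9, all but Gapdh and Pgk1, overlapped between sets 3+6 and 2+5. In 4 (Slc2a4, Pfkm, Hk2 and Pfkfb1) set 1+4 lay above both others, with set 2+5 clear below set 3+6 in Hk2 and Pfkfb1. The 4 members with overlap in every comparison were Pfkfb2, Bpgm, Eno3 and Adpgk. Hk1, Pfkfb3, Pfkfb4, Eno2 and Slc16a3 each had a pattern of their own.

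Lists of neighbouring genes, chosen with earlier results of these data known, held no gene called at a labelled time, with or without the replicate block. Of 25 other isozymes and carriers 11 were tested, and 3 were lower and 2 higher in set 3+6 than in set 1+4 with no overlap, shares near those of all tested genes (19.5% lower and 19.1% higher), with a median log2 difference of -0.12. Bsg, the chaperone that MCT1 and MCT4 need at the membrane, was at 2206 ± 131, 1753 ± 164 and 591 ± 51.5 CPM in the 3 sets, lower with no overlap at each step. Emb, a related chaperone, was at 10.0 ± 1.03, 21.7 ± 3.01 and 21.1 ± 0.799 CPM.

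Of 20 regulators, all tested, 7 were lower and 3 higher in set 3+6 than in set 1+4 with no overlap (19.5% and 19.1% of all tested genes), and their median log2 difference was 0.01. Egln3, a prolyl hydroxylase that marks HIF for degradation and is itself a HIF target, was at 43.8 ± 7.59, 14.6 ± 1.39 and 3.02 ± 0.612 CPM, the widest difference in the list. Mxi1, a MYC antagonist, was at 59.1 ± 4.69, 74.2 ± 2.60 and 26.5 ± 2.94 CPM. Akt1, a kinase of insulin signalling, was at 54.8 ± 2.58, 68.0 ± 3.34 and 74.3 ± 2.22 CPM, and Epas1, a HIF alpha subunit, at 53.5 ± 4.22, 51.1 ± 5.09 and 71.5 ± 3.09 CPM, highest in set 3+6. Prkaa1, a catalytic subunit of AMPK, was highest in set 2+5, at 93.2 ± 1.73 CPM against 45.9 ± 2.23 and 61.4 ± 1.20 CPM.

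Of 18 glycogen genes, 13 were lower and 0 higher in set 3+6 than in set 1+4 with no overlap (19.5% and 19.1% of all tested genes), with a median log2 difference of -0.53. The branching enzyme Gbe1 was at 163 ± 15.7, 111 ± 5.21 and 33.3 ± 3.12 CPM, and Ppp1r3b, a subunit that brings a phosphatase to glycogen, at 37.8 ± 4.54, 12.1 ± 1.71 and 9.40 ± 1.01 CPM. Of 8 pentose phosphate genes, 5 were lower and 1 higher in this comparison with no overlap (19.5% and 19.1% of all tested genes, members' median -0.23 for this list). Tkt, transketolase, was at 293 ± 13.4, 212 ± 19.4 and 161 ± 10.8 CPM. H6pd, the dehydrogenase of the endoplasmic reticulum, was at 57.9 ± 2.33, 61.8 ± 3.37 and 76.1 ± 3.00 CPM. Of 5 genes of pyruvate entry and the glycerol 3-phosphate shuttle, 4 were lower and 0 higher with no overlap (19.5% and 19.1% of all tested genes). Their median was -0.54. Among the 4 was Mpc1, a subunit of the mitochondrial pyruvate carrier, at 64.1 ± 3.46, 61.6 ± 3.10 and 33.7 ± 4.31 CPM. The members' median of -1.33 lay below the median of each of these lists in the same comparison, a difference that was not tested.

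Exons of 11 members overlap a gene on the other strand in GENCODE M21, and those of 3 overlap one on the same strand, 12 members in all. Examples are Gapdh with Iffo1, Tpi1 with Spsb2 and Pkm with Gm49759, and values of such members are uncertain because the strand setting of the counting is not given in the sources used here. Among near-identical copies, Pgk1-rs7 took 8.56% of the counts of its pair with Pgk1 and Pgam1-ps2 took 2.39% with Pgam1, while Gapdh-ps14, Ldha-ps2 and Aldoart1 took 0.0189%, 0.0723% and 0.0834%.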

How the data were processed

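RNA was sequenced in 18 libraries from BMC brown adipocytes as 52-base read pairs, from 250 ng of total RNA with ribosomal depletion and strand selection, per the labels' protocols. The deposited values are expected counts per gene, which the authors estimated with salmon and merged over libraries, per the labels. The submitters' processing notes name mm10, edgeR and limma. For salmon, its version, annotation and strandedness were not given in the sources used here.

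Counts were rounded. In 27.4% of values above 0 they were not whole. Genes were kept by filterByExpr (minimum count 10, minimum total 15), leaving 14788 of 45706. Scaling used the trimmed mean of M values. Log2 CPM used a prior count of 2. Labelled times were tested by edgeR's robust quasi-likelihood test with time alone over all 18 libraries, Benjamini-Hochberg adjusted over all genes, threshold 0.05, two-sided. The replicate number was tested in a model with time. Set differences and their 95% intervals come from that model. Isoform ratios were compared by exact permutation tests. Shares per kb use exon unions of GENCODE M21. Scripts were tested on simulated counts. All 30 members are described whatever their result. Of each neighbouring list at most the 2 highest and 2 lowest genes without overlap in a set difference could be named, and cell type markers were named from their lists. A single gene among those so chosen is not reported here. The members and lists were chosen with earlier results of these data known.

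Replicate numbers, taken from the titles, served as the block. Deviations from time means correlated between 0.297 and 0.718 in all 18 same-number pairs. In the 18 pairs with numbers 3 apart they correlated between 0.237 and 0.688, so these values do not single out a pairing by number. No 2 libraries agreed within sampling noise (closest chi-square per gene 3.49). Alternatives were DESeq2 size factors in edgeR, library totals, no count filter, DESeq2 tests, limma-voom with block and library weights, the block, other lengths or prior counts, and leaving out each library. The software was edgeR 4.0.16, DESeq2 1.42.0 and limma 3.58.1 in R 4.3.3, with pandas 2.3.3 and matplotlib 3.10.9 in Python 3.11.15.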

Additional observations from a re-analysis of the deposited data

Results flagged for a closer look

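Of 84 groups of 6 libraries at a labelled time, 2 had a library far from the other 5 by Dixon's test. Its chance rate of about 1 in 20 holds for a single normal group and does not apply here. Each group held 2 libraries of each number set, and the sets alone accounted for a median of 96.1% of the members' variance. The count of 2 therefore says little about outlying libraries in members whose sets lie apart. Both genes found, Pfkfb2 and Bpgm, are among the 4 members with overlap in every set comparison. Pfkfb2 was at 12.7 CPM in 4 h replicate 3, and the nearest library at 4 h was at 14.4 CPM, a gap of 0.727 of the group's range. Bpgm was at 3.97 CPM in 4 h replicate 2, and the nearest library was at 6.15 CPM, a gap of 0.883 of the range.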

How the results depend on the processing

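The number of members called was 0 at each labelled time under all 24 alternatives, including the replicate block (0 of 28, with 1 gene called among all genes at 24 h), limma-voom with the block and library weights (9 genes at 24 h, 0 of them members), and each library left out (0 to 0). The block changed no call of a member (0 called in each comparison). Only the block and limma-voom took the replicate number into account. The other alternatives kept the spread between number sets in the error, so their 0 says little of stability. For isoform ratios 0 were called with the block too, but the smallest p of that exact permutation test, 0.0312, could hardly pass adjustment over 30 tests and says nothing of stability. The replicate number called 23 to 28 members over the alternatives, and 26 to 28 with a library left out. Members without overlap numbered 13 to 19 for sets 2+5 and 1+4 with a library left out, 22 to 23 for 3+6 and 1+4, and 20 to 22 for 3+6 and 2+5. The 19 came without 24 h replicate 4, which was lower than 24 h replicate 1 in 22 of 28 members, and which had 10.6% ribosomal RNA. A lower level was not particular to this library. Of the 28 members, 19 were lower in 24 h replicate 5 than in 24 h replicate 2. In 24 h replicate 6, with 6.96% ribosomal RNA, 25 were lower than in 24 h replicate 3. The 6 members gained without 24 h replicate 4 were Gpi1, Pfkp, Pgk1, Eno1, Pkm and Slc16a3. Without 24 h replicate 5 the counts lower and higher were 13 and 1 for sets 2+5 and 1+4, and 16 and 4 for 3+6 and 2+5. With library totals without scaling, 11 members did not overlap between sets 3+6 and 2+5, against 20. The cause was not tested. For none of the alternatives was the share of all tested genes without overlap computed beside these counts. Under library totals the median of all genes moved by -0.17 at 24 h against 0 h, and by -0.10, 0.17 and 0.26 in the 3 set comparisons. Of 1764 recomputed set differences, with and without overlap, 62 moved by more than the spread between libraries. A change of sign was counted only for differences without overlap in the main analysis, and 0 were seen. Of 2016 recomputed time fold changes 305 had the other sign, and 0 were called. Of 50 isoform shares recomputed with other lengths 17 moved by more than their spread, and Hk1 in place of Hk2 led the hexokinases by longest transcript. Low counts limit Slc16a3, Aldoc, Eno2, Slc2a3 and Pgam2.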
